A study of Danio rerio with 14 samples.

Results

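The regions described here were the tumor-only H3K27ac regions, stretches of the genome with a peak in every zebrafish T-cell tumor examined and in no normal thymus sample. To find them, the lists of peaks from 4 tumors and 3 thymus samples were pooled, and peaks that shared 1 bp or more were joined into merged regions. A sample counted as called at a merged region if it had a peak there. The members were chosen by these calls, so that their tumor calls and their lack of thymus calls are a description, with no test. They numbered 465 of 98262 merged regions, or 0.473%, and the opposite, thymus-only class, with a call in each of the 3 thymus samples and none in a tumor, numbered 622, or 0.633%.

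H3K27ac is histone H3 acetylated at a lysine of its tail. Acetyltransferases of the CBP family write the mark at active promoters and enhancers, deacetylases remove it, and bromodomain proteins bind acetylated histones and help to recruit the transcription machinery. In developing T cells, enhancers gain and lose the mark as genes of each stage are turned on and off, and dense runs of marked regions, called super-enhancers, tend to surround the genes on which a cell's identity depends.

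The tumors arose in transgenic fish that express human IRF4, a lymphoid transcription factor, together with the fluorescent protein mCherry under the zebrafish lck promoter, which is active in lymphocytes. Tumor cells were harvested once fish showed tumors, and the thymus samples were thymi of fish with lck-driven mCherry alone, at 3 months of age. Cells of both kinds were sorted for mCherry, and each H3K27ac library was called against whole cell lysate. The labels give no p53 genotype and no age for these tumors, and they do not settle how many fish went into a thymus library. Age and the IRF4 transgene therefore cannot be told apart from tissue.

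The samples are tumors 1 to 4 and thymus 2, 3 and 5, numbered as in their labels. The lists held 19809 to 32781 peaks in tumors and 31647 to 40335 in thymus samples, which covered 9.11 to 17.7 Mb in tumors and 9.05 to 18.4 Mb in thymus. They hold no read counts, so the depth behind a call is unknown and no counting interval is given on a call. A batch word stands in the peak names of thymus 2 and 5 but not in those of thymus 3 or any tumor, and its meaning is unclear. If it marks an experimental batch, batch and tissue cannot be told apart except through thymus 3. In bulk samples, more cells with an acetylated region and more acetylation per cell cannot be told apart either. The lymphocyte label was looked at on the study's stitched domains around lck, bcl11ba, zap70, ptprc, themis, rag2 and il7r. These are genes of T-cell signaling and development. The study drew the domains from the H3K27ac of these same samples, so marked regions in them are no independent check of the label. The markers cd4-1, cd8a, lat and rag1 were not among them. Each of these 7 domains held at least 1 region common to all 7 lists. The lck domain, for example, had 5116, 6823, 6481 and 5616 bp covered in tumors 1 to 4 and 3829, 5683 and 5760 bp in thymus 2, 3 and 5. The il7r domain was the exception in holding a tumor-only region among its 29 merged regions, beside 3 common and 1 thymus-only region. Among the study's annotated regions, as opposed to its domains, 2 of 11 T-cell markers, cd8a and il7r, had any, and the 9 merged regions there held no common, no tumor-only and 3 thymus-only regions. The few markers looked up for B cells, macrophages, granulocytes, erythroid cells, keratinocytes and muscle had none among the study's annotated regions held here. Without such a position, merged regions at these genes could not be looked up, and marks there are unknown. The part of such cells in the results was therefore not tested. Gene names outside these markers were not sorted by tissue, and those at members include the muscle genes mybpc3 and myl1.

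Gene names in the text are those the study's own annotation assigned to a region that overlaps the member, used for name and position only. The annotation was held in part and ordered by the study's own tumor and thymus comparison, so which members carry a name depends on the same contrast, and an assigned gene can lie some way off. A name was held for 240 of the 465 members (51.6%), with 192 distinct labels. As the label mycb/fam49ba joins the names of different genes, these labels hold 193 names. Of the labels, 31 stood at 2 or more members and 10 at 3 or more. All coordinates are GRCz11, and whether a member lay in an exon, an intron or a promoter was not analysed here.

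The tumor-only regions were narrower than those common to all 7 lists, but not than every class shared by the tissues. Their median width was 929 bp (quartiles 571 and 1460 bp, range 211 to 5479 bp), and together they spanned 0.535 Mb. Regions common to all 7 lists had a median width of 1438 bp, thymus-only regions one of 587.5 bp, regions called in all tumors and a single thymus sample one of 757 bp, and all merged regions one of 200 bp. A merged region grows with the number of lists that contribute to it, so these widths are not independent of the classes. Of the members, 388 (83.4%) lay on chromosomes 1 to 25, 75 (16.1%) on 62 alternate sequences of the assembly and 2 on unplaced sequences. The share on alternate sequences was 11.1% among common regions and 15.0% among all merged regions.

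The members were a small part of what the tumors shared. Every tumor was called at 11056 regions, and 4.21% of these had no thymus call. Another 507 were called in a single thymus sample, which was thymus 2 for 31, thymus 3 for 204 and thymus 5 for 272, another 2101 in 2 thymus samples, and 7983 in all 3. A further 1103 regions were called in 3 tumors and no thymus sample, and tumor 4, with the shortest list, was the tumor without a call in 507 of them, tumor 2 in 253, tumor 1 in 199 and tumor 3 in 144.

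Peaks of each tumor covered a similar length within the members. The covered length was 338.1, 349, 362 and 288 kb in tumors 1 to 4, or 334 ± 32.3 kb (SD, n = 4), made up of 558, 537, 536 and 584 peaks. By the rule it was 0 in each thymus sample. These lengths were 2.25%, 1.97%, 2.09% and 3.16% of everything the tumors' lists covered, so that tumor 4 had the least length in the members and the highest share of its list there. The median cover per member was 500, 527, 580 and 386 bp in tumors 1 to 4 (498 ± 81.9 bp, SD, n = 4), and the median share of a member's width under peaks was 67.2%, 69.2%, 74.7% and 48.6%. Tumor 4 was the lowest in both, and its peaks were also the more broken up, with more than 1 peak in 99 members against 83, 61 and 59 in tumors 1 to 3.

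**Figure D1:**
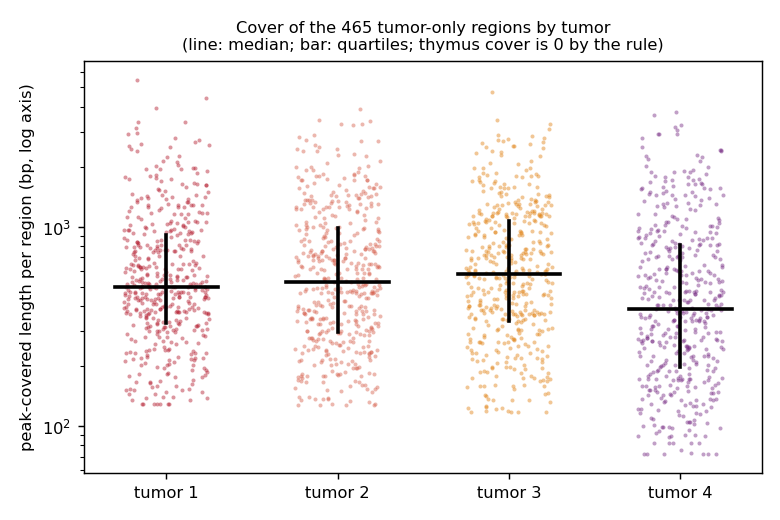
Peak-covered length in base pairs (log axis) of each of the 465 tumor-only regions, for tumors 1 to 4 from left to right; each point is a region, the horizontal line is the median and the vertical bar joins the quartiles. Medians of tumors 1 to 3 lie between 500 and 580 bp and that of tumor 4 at 386 bp, with wide overlap of the 4 distributions.

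Within a member the tumors often differed in extent. The longest cover was 3.02 times the shortest at the median member (quartiles 1.99 and 4.39), at most 1.5 times in 38 members and more than 5 times in 92. Tumor 3 had the longest cover in 158 members, tumor 2 in 125, tumor 1 in 118 and tumor 4 in 64, and the shortest was tumor 4 in 192, tumor 2 in 98, tumor 1 in 93 and tumor 3 in 83. Across the 465 members, Spearman correlations of cover between pairs of tumors ran from 0.422 to 0.548 over the 6 pairs, and across the 7983 common regions from 0.637 to 0.754. These are descriptions over regions, which share a library within each tumor and are not independent replicates.

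Being called in every tumor did not always mean that the same bases were marked. At least 1 bp lay under peaks of all 4 tumors in 421 members (90.5%), while in 44 (9.46%) the peaks of the tumors were joined only through each other and no base was shared by all. The shared core had a median of 168 bp over all members, was 500 bp or longer in 68, and came to 131578 bp in total, 24.6% of the members' width. The weakest tumor of a member covered 239 bp at the median, at least 500 bp in 97 members and at least 1000 bp in 31. In 71 members it covered no more than the narrowest peak of the tumor 1 list, the widest such minimum among the tumors.

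The members at the edge of the rule show how little some calls rest on. Just inside it, a region on chromosome 1 (35956428 to 35956917) had 151, 234, 490 and 72 bp covered in tumors 1 to 4. On alternate sequences, a region of chromosome 12 (363845 to 364162) had 318, 228, 136 and 72 bp, and a region of chromosome 23 (358148 to 358815) had 217, 582, 359 and 72 bp. In each the weakest tumor was tumor 4, at the width of the narrowest peak in its list. Just outside the rule, a region on chromosome 16 (51237216 to 51237924) had 342, 267, 351 and 669 bp in tumors 1 to 4 and 50 bp in thymus 2. A region on an alternate sequence of chromosome 20 (122141 to 124158) had 1944, 1469, 2010 and 1089 bp in the tumors and 50 bp in thymus 2, and another of chromosome 3 (284325 to 284861) had 422, 404, 459 and 334 bp and 50 bp. The narrowest peak was 127, 117 and 72 bp in the lists of tumors 2, 3 and 4, slightly above the first of these in tumor 1, and 50, 53 and 54 bp in those of thymus 2, 3 and 5, so a thymus call could rest on a narrower peak than a tumor call. Over all 507 regions with a single thymus call, the median of the mean tumor cover was 447.75 bp and the median thymus cover 236 bp, and in the members the median of the mean tumor cover was 539.75 bp.

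The members with the longest cover in their weakest tumor carried assigned genes of varied roles. The region assigned to ccr6a, whose human counterpart encodes the receptor for the chemokine CCL20, lay on chromosome 20 (30598354 to 30601808) and had 3109, 3412, 2729 and 3066 bp covered in tumors 1 to 4 (3079 ± 280 bp, SD, n = 4). All 4 tumors were near each other there, and 2330 bp were under peaks of all of them, the longest core of any member. For mhc1laa, a fish gene of the MHC class I family, the assigned region lay on chromosome 8 (44428305 to 44432055) with 3361, 3258, 2840 and 2232 bp. For il10, an anti-inflammatory cytokine, it lay on chromosome 11 (21137649 to 21140793) with 2099, 2727, 2142 and 2903 bp. The nearest thymus peak was 2.541 kb from the ccr6a region, 27.6 kb from the mhc1laa region and 6.15 kb from the il10 region.

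The widest member of all was assigned to gata3, a transcription factor of early T-cell commitment and of type 2 helper T cells. It lay on chromosome 4 (24911505 to 24916983) and had 5467, 3890, 4735 and 2187 bp in tumors 1 to 4 (4070 ± 1411 bp, SD, n = 4), of which 2013 bp were shared by all. Tumor 1 was covered along nearly the whole width and tumor 4 the least. Thymus 3 had a peak only 0.359 kb outside this region, whereas the nearest peak was 20.5 kb away in thymus 2 and 9.18 kb away in thymus 5.

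The region assigned to smtla, a pituitary hormone of fish, lay on chromosome 18 (47765904 to 47770447) with 3939, 2384, 2060 and 3644 bp in tumors 1 to 4, and no region common to all 7 lay within 452 kb. A region with no name held, on chromosome 7 (15426140 to 15428934), had 1907, 2130, 2252 and 2010 bp (2075 ± 149 bp, SD, n = 4). For desi2, which encodes a protease that removes SUMO, the region lay on chromosome 13 (11560346 to 11563819) with 2265, 2296, 3431 and 1881 bp. Tumors 1 and 4 were the higher pair at smtla and tumor 3 stood highest at desi2, while the unnamed region was even across tumors.

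The region assigned to vipb, a neuropeptide that also acts on lymphocytes, lay on chromosome 11 (43429087 to 43432203) with 1857, 2386, 2789 and 2146 bp in tumors 1 to 4. For kcnma1a, the pore subunit of a calcium-activated potassium channel, it lay on chromosome 13 (16813695 to 16816356) with 2658, 1712, 2340 and 2267 bp. For guca1d, a guanylate cyclase activator of the kind found in photoreceptors, it lay on chromosome 21 (22917458 to 22919514) with 1951, 1708, 1704 and 1734 bp. Of the 3, guca1d was the most even between tumors.

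**Figure D2:**
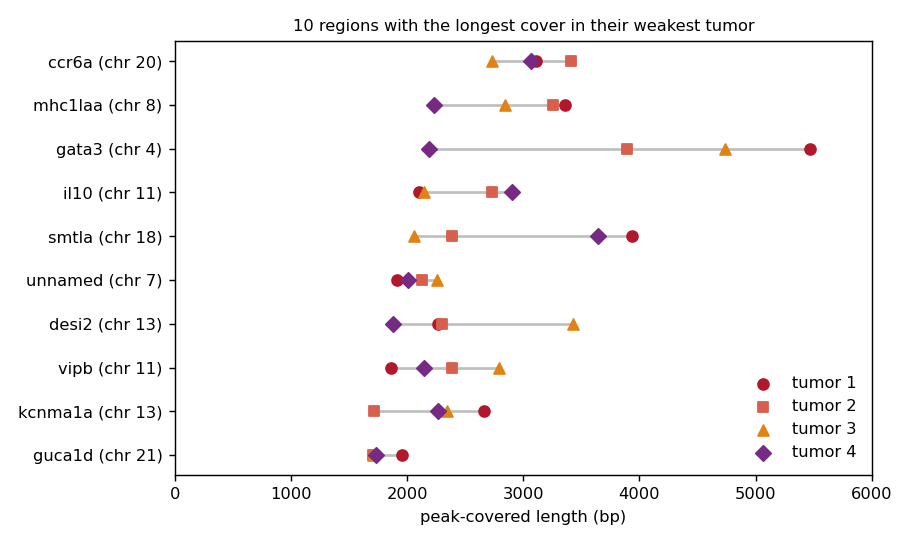
Peak-covered length in base pairs of the 10 tumor-only regions with the longest cover in their weakest tumor, one row per region named by its assigned gene and chromosome, with a marker for each of tumors 1 to 4 and a gray line from the lowest to the highest. The ccr6a and guca1d markers lie close together, and the gata3 markers spread from 2187 bp in tumor 4 to 5467 bp in tumor 1.

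Members were also looked up in lists of genes of T-cell biology and growth. Of the 1367 gene names that the annotation held, 193 (14.1%) stood at a member. Of 28 T-cell transcription factors, 8 had an annotated region among those held, and 2 of these, gata3 and prdm1a, had 4 members between them. Of 27 genes of T-cell receptor signaling and the T-cell surface, 5 had an annotated region and none a member. Of 17 growth and survival genes, 7 had an annotated region and 2, mycb and myca, a member each. Of 10 genes that the study singled out, 9 had an annotated region and 3, mycb, gata3 and sec22ba, had 6 members, but the study chose these genes on the same samples, and the count is not independent evidence of a direction. A list gene counts only through the annotation held, and its absence from the members says nothing about its own enhancers.

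The member assigned to both mycb and fam49ba, on chromosome 2 (32202688 to 32204551), had 1639, 1258, 1199 and 1551 bp in tumors 1 to 4 (1412 ± 216 bp, SD, n = 4). mycb is a zebrafish counterpart of MYC, a driver of growth and proliferation, and fam49ba encodes a regulator of the actin cytoskeleton. The 4 tumors were close, 696 bp were common to them, and the nearest peak was 17.0, 16.2 and 16.4 kb away in thymus 2, 3 and 5. The member assigned to myca, another MYC counterpart, lay on chromosome 24 (10542752 to 10544044) with 746, 1252, 362 and 234 bp. It varied far more, with tumor 2 highest and tumor 4 lowest, and a region common to all 7 lay 6.69 kb from it.

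The member assigned to prdm1a, the counterpart of Blimp-1, which drives terminal differentiation of lymphocytes in mammals, lay on chromosome 16 (7436497 to 7437904). It had 494, 469, 1405 and 796 bp covered in tumors 1 to 4, and a thymus 3 peak lay 0.108 kb beyond its edge. Both members assigned to sec22ba, a protein of transport vesicles between the endoplasmic reticulum and the Golgi, lay on chromosome 2. The first (9976063 to 9977936) had 499, 1360, 1621 and 480 bp, and the second (9978635 to 9979872) had 472, 1224, 1085 and 1059 bp. Tumor 1 was low in both, and tumor 4 in the first.

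Around gata3 the members stood in a stretch that the thymus also marked in part. Its 3 members spanned 122 kb of chromosome 4 (24911505 to 25033586), which held 39 merged regions, 2 of them common to all 7 lists. The second member (24958965 to 24960658) had 1694, 339, 1034 and 1163 bp in tumors 1 to 4 and lay 0.472 kb from a common region. The third (25032254 to 25033586) had 1241, 1306, 176 and 429 bp. The span held 29, 20, 28 and 15 peaks in tumors 1 to 4 and 3, 7 and 6 peaks in thymus 2, 3 and 5, counts that include the members' own peaks, which the rule fixed.

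**Figure D3:**
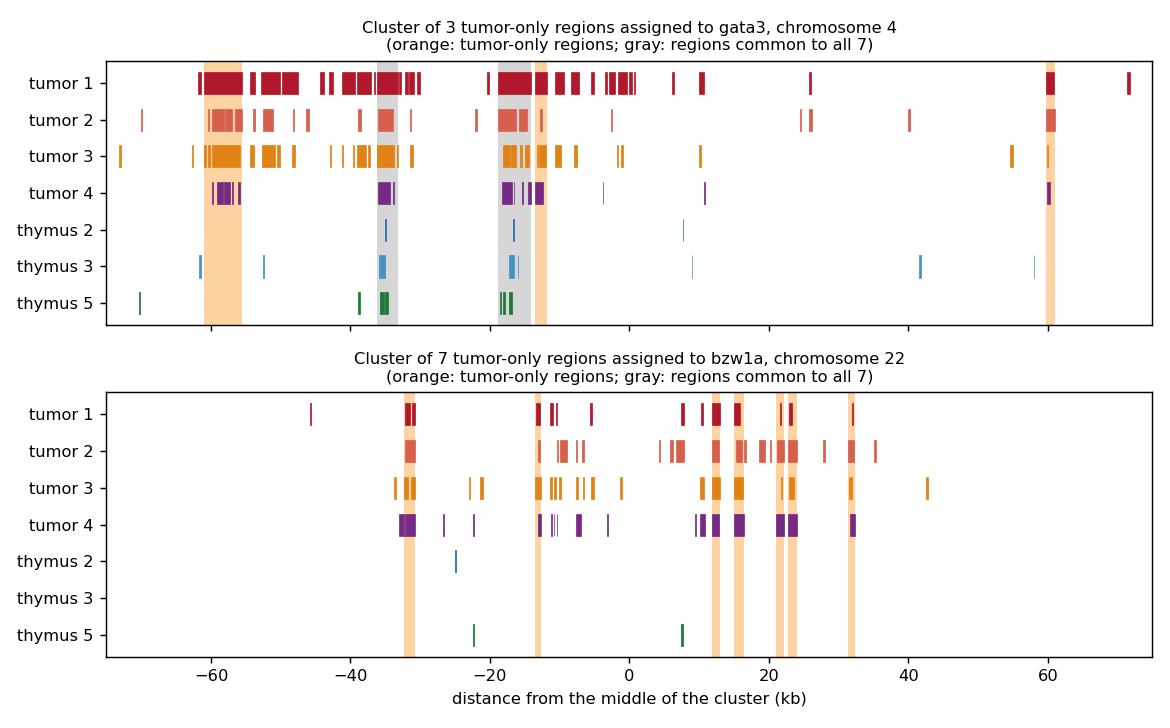
Peaks of tumors 1 to 4 (upper 4 lines of each panel) and of thymus 2, 3 and 5 (lower 3 lines) against distance in kb from the middle of the cluster, around the 3 tumor-only regions assigned to gata3 (top) and the 7 assigned to bzw1a (bottom); orange bands are tumor-only regions and gray bands regions common to all 7. Common regions lie between the gata3 members, whereas the bzw1a stretch holds none, and thymus peaks there are few.

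Members grouped after their values and names had been seen are given here as values alone. Among genes of signaling and cytokines, 11 genes had 12 members, with 15228, 17577, 16459 and 11908 bp covered in tumors 1 to 4 in sum. Besides ccr6a and il10, they were assigned to prkcq, plcg2, pik3cg, grb2b, gab1, rasgrp3, pak1, dusp4 and spry2. For prkcq, the protein kinase C isoform that acts downstream of the T-cell receptor, the member lay on chromosome 4 (25363796 to 25365803) with 2008, 1567, 1186 and 1309 bp. For pik3cg, a catalytic subunit of phosphoinositide 3-kinase in leukocytes, the member lay on chromosome 4 (3327705 to 3329141) with 1068, 968, 1230 and 687 bp. Tumor 1 was highest at prkcq and tumor 3 at pik3cg.

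The member assigned to grb2b, an adaptor between receptor tyrosine kinases and Ras, lay on chromosome 3 (25438813 to 25440870) with 1255, 1720, 1790 and 625 bp in tumors 1 to 4. For pak1, a kinase activated by Rac and Cdc42, the member lay on chromosome 18 (3307894 to 3309780) with 1586, 1406, 1846 and 978 bp. For plcg2, a phospholipase of B-cell and Fc receptor signaling in mammals, the member lay on chromosome 18 (13241799 to 13242854) with 327, 380, 1056 and 138 bp. In all 3 tumor 3 was highest and tumor 4 lowest.

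The members assigned to spry2, an inhibitor of receptor tyrosine kinase signaling, were 2 regions of chromosome 1. The first (5104485 to 5105778) had 386, 1294, 523 and 638 bp, and the second (5333346 to 5334780) had 1401, 1435, 1326 and 339 bp. For dusp4, a phosphatase of MAP kinases, the member lay on chromosome 21 (20041647 to 20043113) with 469, 1105, 924 and 380 bp. Tumor 2 was the highest in all of these.

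Among genes of transcription and chromatin, again grouped after they were seen, 10 genes had 11 members, with 10758, 9188, 14047 and 8497 bp in tumors 1 to 4 in sum. The genes were tox2, zbtb16a, klf9, klf11b, mllt3, brd2b, jarid2b, mef2aa, smad1 and trps1. The member assigned to tox2, an HMG-box factor of lymphocyte development in mammals, lay on chromosome 6 (58204641 to 58205218) and was among the most even, with 503, 485, 557 and 525 bp. For trps1, a GATA-type repressor, the member lay on chromosome 19 (45643919 to 45647202) with 2788, 1351, 3284 and 1983 bp. For klf9, a zinc finger factor, the member lay on chromosome 5 (26071097 to 26072971) with 1617, 1624, 752 and 1431 bp. Tumor 3 was thus highest at trps1 and lowest at klf9.

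Chromatin regulators were present as well. Both members assigned to brd2b, a BET bromodomain protein that binds acetylated histones, lay on chromosome 16. The first (48886223 to 48887502) had 715, 753, 1280 and 606 bp in tumors 1 to 4, and the second (48893520 to 48896386) had 2146, 1277, 2867 and 873 bp. The first lay 0.235 kb from a region common to all 7, and tumor 3 was highest and tumor 4 lowest in both. For jarid2b, a cofactor of the Polycomb complex that methylates the same lysine, the member lay on chromosome 19 (26029410 to 26030221) with 499, 507, 546 and 703 bp. For mllt3, a reader of acetylated histones in the super elongation complex, the member lay on chromosome 7 (18870453 to 18872472) with 256, 1132, 1848 and 279 bp, low in tumors 1 and 4.

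Along the chromosomes most members stood singly and the others in small clusters. Members joined where the gap between them was at most 100 kb gave 304 single members, 42 pairs, 16 clusters of 3, 3 of 4, 2 of 5 and 1 of 7, so that 161 members (34.6%, 95% exact binomial interval 30.3 to 39.1%, which covers counting error only) had another within 100 kb. The median gap to the nearest other member was 359 kb, and 53 members were alone on their sequence. For thymus-only regions, which were more numerous, the share within 100 kb of another of their class was 41.0%, and for common regions it was 79.5%. Since the classes differ in size, these shares do not compare their tendency to cluster.

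The cluster with the most members lay on chromosome 22 (14360769 to 14425399, 64.6 kb), with 7 members all assigned to bzw1a, a regulator of translation initiation. It held 13, 18, 18 and 16 peaks in tumors 1 to 4 and 1, 0 and 2 peaks in thymus 2, 3 and 5. Its members had 4650, 6608, 5940 and 7446 bp covered in tumors 1 to 4. Peak counts of this and the other clusters include those in the members themselves, which the rule fixed, and are no support for a difference between tissues. The most even of these members (14404858 to 14406030) had 1059, 975, 1156 and 1013 bp, and the least even (14414112 to 14415198) had 156, 901, 131 and 1073 bp.

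The clusters of 5 members were longer and their members more scattered. On chromosome 13 (24961416 to 25120985, 160 kb), 3 of the 5 members were assigned to adka, which encodes adenosine kinase, and 1 to the phosphatase gene dusp13a. Together the 5, named or not, had 7731, 3430, 6610 and 4432 bp in tumors 1 to 4. The span held 7, 11, 8 and 13 peaks in tumors and 1, 4 and 0 in thymus samples 2, 3 and 5. On chromosome 21 (23514434 to 23736811, 222 kb), 1 of the 5 members was assigned to zbtb16a and at most 2 to ncam1a. zbtb16a is the counterpart of PLZF, a factor of innate-like T cells in mammals, and ncam1a an adhesion molecule of neurons and natural killer cells. All 5 members, named or not, had 1707, 2766, 2644 and 3305 bp in sum. That span held 15, 12, 13 and 14 peaks in tumors and 1 in each thymus sample. The zbtb16a member itself (23514434 to 23516139) had 656, 680, 1699 and 856 bp, and was the highest in tumor 3.

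The clusters of 4 members spanned less than those of 5 or 7. On chromosome 22 (5801032 to 5817066, 16.0 kb), members, of which 2 were assigned to cers5, a ceramide synthase gene, had 3104, 2802, 3221 and 2064 bp in tumors 1 to 4, with 6, 6, 5 and 5 peaks and no thymus peak in the span. On chromosome 24 (441373 to 463561, 22.2 kb), members assigned to zgc:110852 had 6617, 6426, 3624 and 6124 bp, with 6, 8, 6 and 9 peaks and again no thymus peak. On chromosome 18 (16029788 to 16083739, 54.0 kb), members assigned mainly to sspn, a component of the dystrophin complex, had 2861, 4898, 3707 and 2751 bp, with 11, 13, 12 and 7 peaks in tumors and 0, 1 and 1 in thymus 2, 3 and 5. None of these 6 clusters of 4 or more held a region common to all 7 or a thymus-only region.

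Members per chromosome, without alternate sequences, ran from 7 on each of chromosomes 5 and 10 to 29 on chromosome 3, with a median of 14. Alternate sequences of chromosomes 5, 10 and 3 held a further 9, 6 and 5 members, so the low count on chromosome 5 is partly one of placement. As a share of the merged regions of a chromosome they made up 0.170% on chromosome 5 and 0.879% on chromosome 18, against 0.474% over chromosomes 1 to 25. Chromosomes 22, with 0.862%, and 17, with 0.811%, came next to chromosome 18. Of members on chromosomes, 62 of 388 (16.0%) lay in the outer 10% of a chromosome at either end, against 124 of 534 thymus-only regions (23.2%), 1959 of 7019 common regions (27.9%) and 22.1% of all merged regions. These shares are given as description and were not tested.

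The distance to regions common to all 7 lists varied widely between members. The median gap was 32.6 kb (quartiles 10.1 and 128.2 kb), the longest 952 kb, and 22 members had no common region on their sequence. Within the joining distance, the gap of slightly over 12 kb across which the study joined peaks into super-enhancers, lay 130 members (28.0%, 95% exact binomial interval 23.9 to 32.3%), and within 50 kb lay 265 (57.0%). The share within the joining distance was 38.9% among thymus-only regions (median gap 20.5 kb), 27.6% among regions called in 3 tumors and no thymus sample (median gap 34.9 kb), and 24.6% among all regions not common to all 7 (median gap 48.0 kb). Within the joining distance of a thymus-only region lay 6 members (1.29%) and 3.79% of all regions that were not thymus-only, and the median gap to a thymus-only region was 891 kb for members and 969 kb for all those regions. Thymus-only regions are few, and these shares were not tested.

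**Figure D4:**
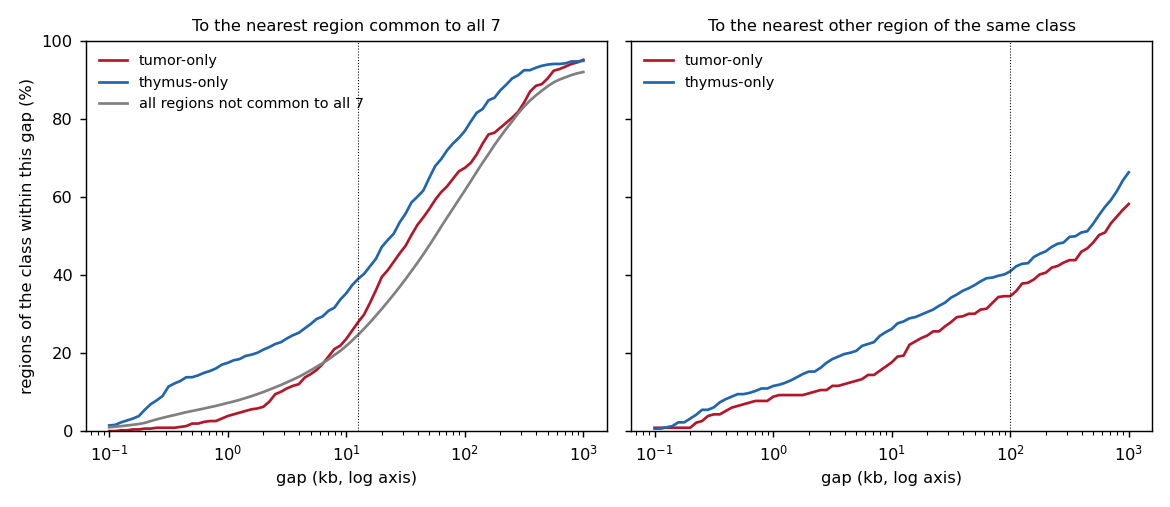
Share in percent of the regions of a class that lie within a given gap in kb (log axis) of the nearest region common to all 7 (left, dotted line at the joining distance of slightly over 12 kb) or of the nearest other region of the same class (right, dotted line at 100 kb), for tumor-only, thymus-only and, on the left, all regions not common to all 7. Within the joining distance of a common region lay 28.0% of tumor-only and 38.9% of thymus-only regions, and within 100 kb of another of their class 34.6% and 41.0%.

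Some members lay near thymus peaks although they had no thymus call. The median gap to the nearest peak was 14.5, 10.9 and 10.5 kb in thymus 2, 3 and 5. It was 5.68 kb to a peak of any of them, with 97 members (20.9%) within 1 kb of a thymus peak. Thymus-only regions lay closer to peaks of any tumor, with a median gap of 2.08 kb and 240 (38.6%) within 1 kb. Another peak of the same list lay within 1 kb of 34.0%, 34.8%, 35.3% and 31.6% of members in tumors 1 to 4, and a thymus peak lay within 1 kb of 6.24%, 11.2% and 13.1% in thymus 2, 3 and 5. Around thymus-only regions the tumor lists had a peak within 1 kb of 27.01%, 26.4%, 27.8% and 17.7% in tumors 1 to 4, and the thymus lists another peak within 1 kb of 57.9%, 70.9% and 70.3%. Peaks of the other tissue thus stood within 1 kb of 6.24 to 13.1% of tumor-only and 17.7 to 27.8% of thymus-only regions, in lists that differ in length and with no test made. At the centre of the members the tumors had a peak in 77.4%, 78.5%, 80.6% and 64.7%. At 20 kb to either side the shares ran from 2.80% to 5.59% in tumors and from 0.645% to 5.16% in thymus samples.

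**Figure D5:**
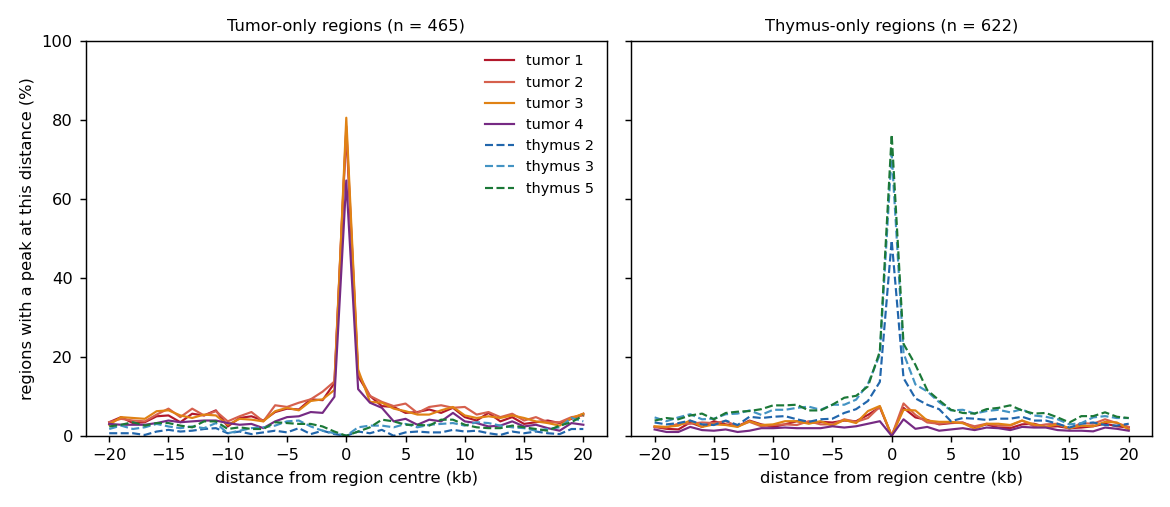
Share in percent of tumor-only regions (left) and thymus-only regions (right) that have a peak at each distance in kb from the region's centre, with solid lines for tumors 1 to 4 and dashed lines for thymus 2, 3 and 5. In the left panel the tumor lines peak at the centre at 64.7 to 80.6% and the thymus lines are at 0 there by the rule.

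The members farthest from any thymus peak ranged widely in size. The farthest was assigned to dhrs3b, an enzyme that reduces retinaldehyde, on chromosome 11 (28613949 to 28614693), 238 kb from the nearest thymus peak, with 332, 382, 599 and 745 bp in tumors 1 to 4. Next came a pair on chromosome 17 (13609466 to 13609894 and 13607931 to 13609253) assigned to pnn, a protein of desmosomes and RNA splicing, at 168 and 167 kb, with 295, 397, 232 and 233 bp in the first and 651, 1323, 321 and 406 bp in the second. An unnamed region of chromosome 1 (37086481 to 37088290, 111 kb) had 1382, 148, 1458 and 147 bp, and the member assigned to klf11b, a Krüppel-like factor, on chromosome 17 (32102455 to 32103178, 95.1 kb), had 714, 133, 198 and 703 bp. Neither of these last regions had a base covered in all 4 tumors, so distance from thymus peaks did not go with an even mark across tumors in them.

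Stretches were also built from each tumor list alone by joining peaks within the same joining distance. In tumors 1 to 4, 125, 127, 131 and 162 members (26.9%, 27.3%, 28.2% and 34.8%) had no other peak of the same list within that distance. The median number of peaks in a member's stretch was 3, 3, 3 and 2. Around thymus-only regions, another peak of the same list lay within that distance of 88.1%, 92.6% and 92.3% in thymus 2, 3 and 5. The lists differ in length, and these shares were not tested.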

How the data were processed

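The 7 H3K27ac lists (4 tumors, 3 thymus samples) were used, without the input libraries. According to the methods, the authors used Bowtie2 for alignment to GRCz11, SAMtools to drop duplicates, and MACS2 2.1.1.2016030 for broad peaks of each library against whole cell lysate. The deposited lists give peak positions and, for tumor 1 only, a score, −log10 p-values and q-values, and a ratio, the fold enrichment, which were not used in the results. Lists differ in the width of their narrowest peak, for a reason that was not tested. No list gives read counts.

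Peaks were merged at 1 bp of overlap. Covered length is the length of a region under a list's peaks, and gaps are counted between region edges on the same sequence. The joining distance is 12.5 kb. The members and lists were chosen with earlier results of these data known, and no test of the results was made, since the calls chose the members. Dixon's limit served only to flag values for a closer look. Regions named were the 10 with the longest cover in their weakest tumor, clusters of 4 or more, the 5 farthest from thymus peaks, 3 on each side of the rule, and members of the gene lists; the genes grouped by role were chosen after their values were seen. Names came from the study's annotation of regions, by overlap. Binomial intervals are exact (95%). Alternatives were chromosomes 1 to 25, peaks of at least 128 bp, merging within 500 bp, cover of at least 20%, other windows and leaving out each sample. Tools were NumPy 2.4.6 and SciPy 1.17.1 under Python 3.11.15, with figures by matplotlib 3.10.9. Merging and counting were tested on simulated data.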

Additional observations from a re-analysis of the deposited data

Results flagged for a closer look

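In 54 sets of 4 tumor values, 45 of them named regions, the sample farthest out was set against Dixon's limit. Of these sets 4 passed it, and chance passes about 1 in 20. The rule chose the members behind the sets, and some sets share members, so a flag only marks a value to look at. Counts of shortest cover are also tied to each other, since the tumors share out the same members. Tumor 4 had the shortest cover in 192 members, far above the 93, 98 and 83 of tumors 1, 2 and 3. Tumor 4 also stood apart in the members with no other peak of its list within the joining distance, with 162 against 125, 127 and 131. At the region assigned to guca1d, tumor 1 was flagged with 1951 bp against 1708, 1704 and 1734 bp, because those other values lay so close together. The region was still an even one, with 1774 ± 119 bp (SD, n = 4). At the second region assigned to spry2 on chromosome 1 (start 5333346), tumor 4 was far from the others with 339 bp against 1401, 1435 and 1326 bp. Tumor 4 also had the shortest list, and the part of this in its values was not tested.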

How the results depend on the processing

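Of 34 alternatives apart from leaving out samples, 18 stayed within the spread allowed and 16 moved beyond it. On chromosomes 1 to 25 alone the mean covered length was 292 kb per tumor. With only peaks at least as wide as the narrowest of tumor 1 it was 395 kb, and 23.6% of members lay within the joining distance (slightly over 12 kb) of a common region. Merging within 500 bp gave a median width of 1276 bp, 23.0% near a common region and 26.6% within 100 kb of another member. Calls that need 20% cover gave a width of 823 bp, a cover of 258 kb and 12.4% near a common region. Other windows gave 14.6% (5 kb) and 57.0% (50 kb) near a common region, and 19.4% (the joining distance) and 58.3% (1 Mb) near another member. Members at least 5 kb from every thymus peak, a choice made after seeing the data, numbered 248, with 184 kb covered and 11.7% near a common region. The other added choice, a base covered in all 4 tumors, kept 421 members and moved none of the 5 results. The cause of these moves was not tested, apart from the sets of regions and windows that each setting itself changes.

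Leaving out 1 sample at a time, the count of members lay between 496 and 980, the median width between 708.5 and 923 bp, the mean covered length between 358 and 592 kb, the share near a common region between 24.1% and 34.3%, and the share near another member between 33.95% and 43.3%. The count moved by over 1.5 times without tumor 4 (980), tumor 2 (734) or thymus 5 (754). The mean covered length moved most without tumor 4 (592 kb), but it passed its limit, the SD of 32.3 kb, without any sample except thymus 2. The median width likewise passed the limit set for it, 81.9 bp, without any sample except thymus 2. That limit is the SD over tumors of the median cover per member, not a spread of widths. By construction a rule on fewer samples admits more regions. No paired analysis was possible because the results come from no test, and tumors and thymus samples that share a number came from different fish. Peak calls carry no depth, so a missing call does not show that the mark is absent.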
